A study of Homo sapiens with 44 samples.

Results

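The 10 genes described here are used to recognise endothelial cells, the cells that line blood vessels and the inner surface of the heart. They are the receptors KDR, FLT1, TEK and TIE1, the junction and adhesion genes CDH5, PECAM1 and ESAM, and the transcription factors SOX7, SOX18 and ERG. They were chosen by symbol from the 60499 genes of the deposited count table, and each symbol matched 1 Ensembl identifier of GENCODE release 29. All 10 passed the filter on low counts, which left 22955 genes.

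RNA came from whole wells of the established human embryonic stem cell line H1, sampled along a cardiovascular differentiation protocol, in 44 libraries and 12 groups. Pluripotent H1 cells grew on the laminin LN-521 (3 libraries). Every later group grew on LN-521 together with LN-221. Day 0 cells (3 libraries) were in Nutristem medium. At day 1 and day 3 (3 libraries each) the medium was RPMI with B27 lacking insulin and with CHIR99021, a GSK3 inhibitor that turns on Wnt signalling. Day 5 wells (5 libraries) had IWP2, which blocks the production of Wnt ligands, in the same base. Wells of day 7 and day 9 (5 libraries each) had that base with neither inhibitor. From day 11 (5 libraries) to days 14, 20, 30 and 90 (3 libraries each) the cells were in RPMI with CTS B-27. For day 11 the series' text speaks of 3 wells where the labels give 5, and all 5 were used. The series is 1 cell line and holds no wells of the same age without the inhibitors, so time, medium and inhibitor cannot be told apart. The pluripotent and day 0 groups also differ in their coating. No cells were sorted, so a lower level can reflect fewer cells of a type or less RNA per cell, and these cannot be told apart. The labels call the wells biological replicates without naming separate cultures, so p-values measure the spread between wells, which may be technical.

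KDR and FLT1 are receptors for vascular endothelial growth factors. KDR carries most of the growth signal, whereas FLT1 binds the ligand tightly and signals weakly. KDR is also made by mesoderm cells from which blood vessels, blood and heart arise. TEK is the receptor for angiopoietins, and TIE1 is its partner with no well established ligand of its own. CDH5 (VE-cadherin) builds the adherens junctions between endothelial cells, and PECAM1 and ESAM are immunoglobulin-type adhesion proteins at the same borders. ERG is an ETS-family transcription factor, and SOX7 and SOX18 belong to the SOXF family. Both families bind regulatory DNA of endothelial genes. In the heart, endothelial cells include the endocardium, which forms beside the first cardiomyocytes.

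All 10 are protein-coding genes, with positions on GRCh38 from GENCODE release 29. KDR (ENSG00000128052) spans chr4:55078259-55125595 on the minus strand, FLT1 (ENSG00000102755) chr13:28300344-28495145 on the minus strand, and TEK (ENSG00000120156) chr9:27109141-27230175 on the plus strand. TIE1 (ENSG00000066056) spans chr1:43300993-43323108 on the plus strand. CDH5 (ENSG00000179776) spans chr16:66366622-66404786 on the plus strand, PECAM1 (ENSG00000261371) chr17:64319415-64413776 on the minus strand, and ESAM (ENSG00000149564) chr11:124752583-124762290 on the minus strand. SOX18 (ENSG00000203883) spans chr20:64047582-64049641 and ERG (ENSG00000157554) chr21:38380027-38661780, both on the minus strand. SOX7 (ENSG00000171056) overlaps PINX1 on the same strand and AC105001.1 on the other, and had fractional counts, so its values are uncertain. KDR, ESAM and ERG each overlap a gene on the opposite strand (AC111194.2, AP000866.2 and SNRPGP13), and whether counting used the strand is not given in the sources used here.

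The bases just upstream of the 4 receptor genes are shown because these genes carried most of the summed signal and did not share 1 course. They are RefSeq promoter windows on GRCh38.p14, cut where the GENCODE gene begins, and printed along the gene's strand. Capitals mark GGAAG, a form of the ETS core, or CTTCC where it lies on the other strand, searched on both strands. Other forms of the core were not searched and are not marked.
TIE1 (chr1:43300732-43300981, plus strand): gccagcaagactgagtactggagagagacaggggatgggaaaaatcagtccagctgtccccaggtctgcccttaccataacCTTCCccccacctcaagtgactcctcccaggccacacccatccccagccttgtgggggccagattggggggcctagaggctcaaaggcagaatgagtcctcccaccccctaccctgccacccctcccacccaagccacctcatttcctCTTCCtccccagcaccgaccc
TEK (chr9:27108975-27109140, plus strand): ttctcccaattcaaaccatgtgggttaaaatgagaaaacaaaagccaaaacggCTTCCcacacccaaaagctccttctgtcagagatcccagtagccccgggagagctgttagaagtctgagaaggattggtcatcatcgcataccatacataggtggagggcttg
KDR (chr4:55125596-55125845, minus strand): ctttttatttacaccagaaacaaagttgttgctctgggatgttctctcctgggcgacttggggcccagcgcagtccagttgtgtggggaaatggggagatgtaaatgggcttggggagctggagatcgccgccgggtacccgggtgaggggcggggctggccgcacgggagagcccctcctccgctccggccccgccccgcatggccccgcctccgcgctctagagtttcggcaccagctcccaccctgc
FLT1 (chr13:28495146-28495378, minus strand): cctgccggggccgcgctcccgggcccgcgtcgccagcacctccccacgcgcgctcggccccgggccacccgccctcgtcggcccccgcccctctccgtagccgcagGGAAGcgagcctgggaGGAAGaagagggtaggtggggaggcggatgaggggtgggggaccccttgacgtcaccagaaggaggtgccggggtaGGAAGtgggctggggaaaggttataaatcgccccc
The FLT1 window held 3 matches to these letters, TIE1 2, TEK 1 and KDR 0. Of 35116 RefSeq windows of 250 bases, 65.09% held at least 1 such match and 11.87% held 3 or more. ACAAT, a form of the SOX core searched also as its reverse complement, was in none of the 4 printed windows and in 24.63% of all windows. Other forms of the SOX core were not searched. The printed TEK and FLT1 stretches are shorter than these windows (166 and 233 bases). Over its full window TEK held 2 matches to this ETS form and 1 to this SOX form, and FLT1 3 and 0. A match describes letters only. Of the 10 genes 5 had a RefSeq window. All windows of the fifth, ERG, began inside its GENCODE gene and are not printed.

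Total estimated counts ran from 6937136 to 33498022 per library, and 3 libraries were shallow (day 20 replicate 2 with 6937136, day 14 replicate 2 with 8679308 and day 30 replicate 10 with 11715812). The smallest level taken as measurable, 3 counts, was 0.0919 to 0.410 CPM depending on the library. CPM here are counts relative to library size after TMM scaling, which makes libraries comparable for 1 gene but not genes of different length, for which the deposited TPM were used. RNA integrity scores ran from 7.4 to 10, and the libraries were spread over 5 sequencing lanes. The pluripotency list (POU5F1, NANOG, SOX2, DNMT3B and LIN28A) summed to 7321 to 7367 CPM in pluripotent wells and to 13 to 24.9 CPM at day 90. The sum of 5 cardiomyocyte genes was 38.5 to 50.3 CPM at day 3 and 6256 to 15408 CPM at day 9.

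The genes fell into sets with different starting levels. In pluripotent cells CDH5, PECAM1, ESAM, SOX7, SOX18 and ERG were each under 1 CPM on average, and KDR, FLT1, TEK and TIE1 were between 9.99 and 135 CPM. Between day 0 and day 9, 8 of 10 genes rose and 0 fell (17.1% of all tested genes were called higher and 14.6% lower), and KDR and FLT1 did not pass. Between day 9 and day 90 all 10 fell (12% of all tested genes were called lower). A call is a Benjamini-Hochberg adjusted p under 0.05 in edgeR's quasi-likelihood test together with a log2 fold change of at least 1 in size. The median log2 fold change of the 10 genes was 2.71 for day 9 over day 0 and -3.72 for day 90 over day 9, beside 0.08 and -0.02 over all tested genes.

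**Figure D1:**
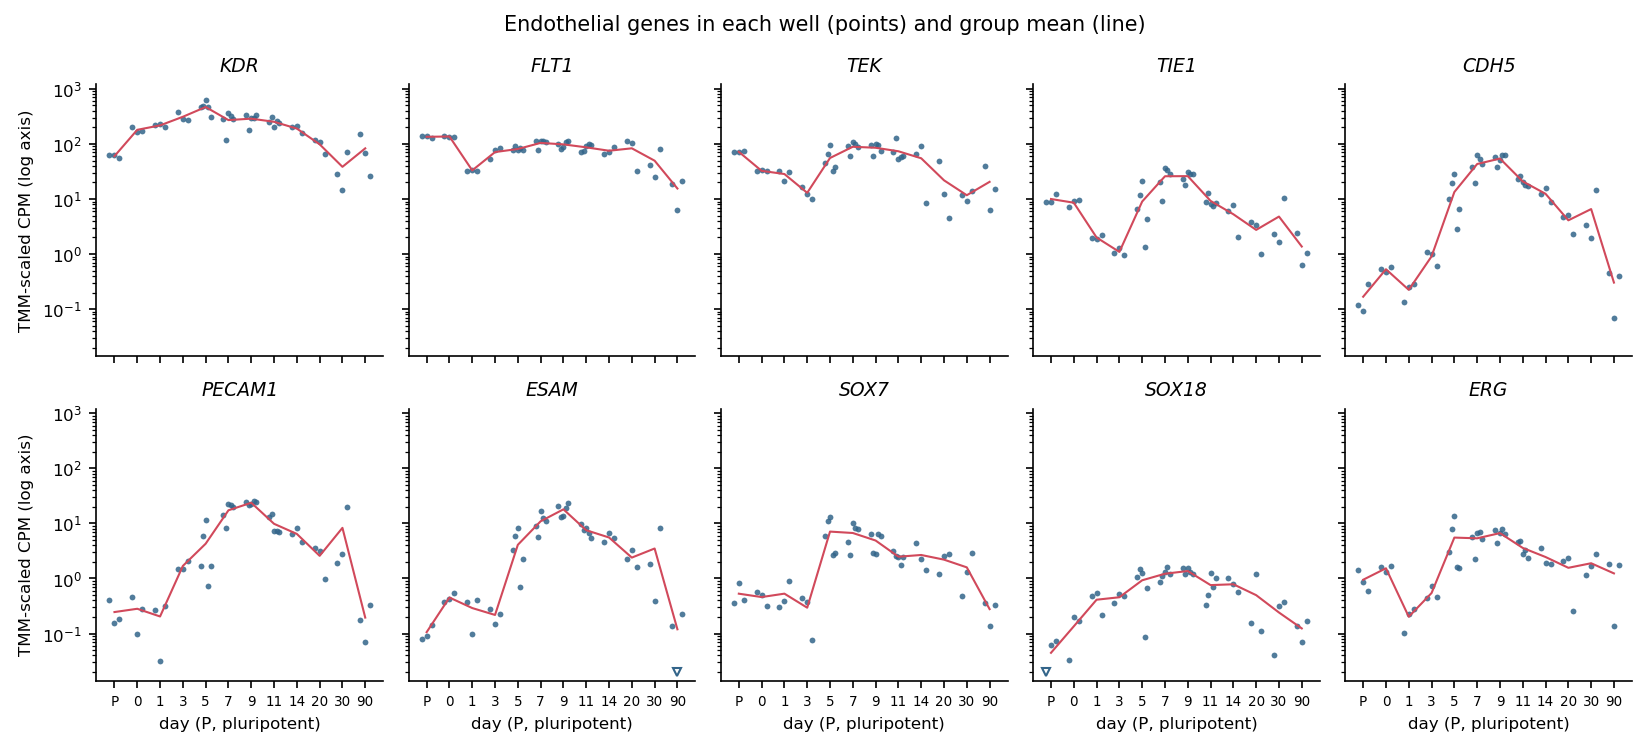
Level of each of the 10 genes in every well (points) and the group mean (line), in TMM-scaled CPM on a log axis, against day (P, pluripotent); triangles mark wells with 0 counts. KDR and FLT1 stay above 6 CPM in every well, while CDH5, PECAM1 and ESAM go from under 1 CPM in pluripotent cells to means of 54.2, 23.8 and 18.0 CPM at day 9 and under 1 CPM at day 90.

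KDR, the main receptor for VEGFA, was present from the start and highest at day 5. Its pluripotent wells read 62.6, 61.7 and 55.7 CPM and its day 0 wells 201, 166 and 174 CPM, so the groups did not overlap. This was a rise of 1.59 ± 0.41 on the log2 scale (SE, adjusted p = 0.018), and KDR was the only member of the 10 called at that step (2.73% of all tested genes were called higher). The call was lost without any single pluripotent well or without day 0 replicate 1 (adjusted p = 0.065 to 0.079). Levels were 218, 232 and 200.4 CPM at day 1 and 377, 287 and 269.6 CPM at day 3. Neither step passed (log2 0.27 and 0.52, adjusted p = 0.72 and 0.36).

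At day 5 the KDR wells read 464, 482, 619.8, 467 and 308 CPM, and the mean was 468 ± 111 CPM (SD, n = 5). The low well of day 5 lay inside the range of day 3. No later step between neighbouring days was called. The mean was 271 ± 91.0 CPM on day 7 and 288 ± 63.4 CPM on day 9. It was 252 ± 40.2 CPM on day 11 and 190.0 ± 29.4 CPM on day 14. At day 20 the wells read 119.8, 111 and 64.9 CPM, and at day 30 they read 28.8, 14.8 and 71.7 CPM. Between day 9 and day 30 KDR fell by 2.90 ± 0.41 on the log2 scale (SE, adjusted p = 1e-06), 7.47-fold. Day 90 wells spread widely, at 154, 69.6 and 26.0 CPM. KDR at day 90 was 83.1 ± 64.9 CPM against 38.4 ± 29.7 CPM at day 30 (SD, n = 3 each), with log2 1.11 and adjusted p = 0.086. It was called higher in DESeq2 (adjusted p = 0.035), with lane as a term (log2 1.47, adjusted p = 0.042), with the replicate block (log2 1.02, adjusted p = 0.042) and without day 30 replicate 3 (1.93, adjusted p = 0.0064) or day 90 replicate 5 (1.54, adjusted p = 0.016).

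FLT1, the tight-binding and weakly signalling receptor, had its highest level before differentiation began. Wells read 137, 140.4 and 127 CPM in pluripotent cells and 139, 135 and 135 CPM at day 0. At day 1, after CHIR99021, they read 32.5, 34.3 and 32.3 CPM, all far below day 0. FLT1 fell by 2.04 ± 0.34 on the log2 scale (SE, adjusted p = 1.8e-05), 4.13-fold, and the call held under every alternative tried. It then rose by 1.11 ± 0.33 to wells of 53.2, 77.1 and 83.1 CPM at day 3 (adjusted p = 0.0089), a call lost without day 3 replicate 3, where the change was 0.98.

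From day 5 to day 20 FLT1 was without a called step, with group means between 75.2 and 104 CPM. At day 20 replicate 3 stood low, with 32.6 CPM against 113 and 104 CPM. Day 30 wells read 41.5, 25.5 and 81.8 CPM. Day 90 wells read 19.0, 6.40 and 21.1 CPM and lay below all of day 30. The fall from day 30 to day 90 was 1.68 ± 0.34 on the log2 scale (SE, adjusted p = 0.0013).

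TEK, the angiopoietin receptor, had a dip and a return. Pluripotent wells read 70.3, 71.9 and 73.3 CPM, day 0 wells 32.3, 32.9 and 32.1 CPM and day 3 wells 16.6, 12.4 and 9.89 CPM. These ranges did not overlap, but neither the step to day 0 (log2 -1.15, adjusted p = 0.25) nor that from day 1 to day 3 (log2 -1.13, adjusted p = 0.15) was called. At day 5 the wells read 45.5, 66.0, 96.6, 31.8 and 37.6 CPM, all above day 3. TEK rose by 2.10 ± 0.56 on the log2 scale (SE, adjusted p = 0.0067), a call lost without day 3 replicate 3 (adjusted p = 0.051).

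The TEK mean was highest at day 7, 88.8 ± 17.8 CPM (SD, n = 5), and day 9 was close at 85.2 ± 17.3 CPM. Of the 11 pairs of neighbours in the order of its group means, 0 had wells that did not overlap. At day 14 the wells read 66.2, 90.0 and 8.43 CPM and at day 20 48.7, 12.3 and 4.53 CPM, so single wells differed more than the means. Its day 30 wells read 11.97, 9.22 and 13.9 CPM, and from day 9 TEK fell by 2.86 ± 0.58 on the log2 scale (SE, adjusted p = 0.00022). The rise from day 0 to day 9, 1.39 ± 0.54 on the log2 scale (adjusted p = 0.03), was lost without any single day 0 well (adjusted p = 0.076 to 0.080).

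TIE1, the partner of TEK, also dipped before it rose. Wells read 8.76, 8.82 and 12.4 CPM in pluripotent cells and 7.08, 9.12 and 9.49 CPM at day 0. At day 1 they read 1.92, 1.86 and 2.21 CPM, and TIE1 fell by 2.10 ± 0.63 on the log2 scale (SE, adjusted p = 0.014), a call lost without day 1 replicate 1 (adjusted p = 0.052). The lowest mean was at day 3, 1.09 ± 0.187 CPM (SD, n = 3). Day 5 wells read 6.62, 11.7, 21.0, 1.35 and 4.39 CPM, all above day 3, although replicate 4 only just. The rise was 3.03 ± 0.64 on the log2 scale (adjusted p = 0.00062).

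At day 7 the TIE1 wells read 20.4, 9.30, 37.3, 33.4 and 29.02 CPM, where the 9.30 belongs to replicate 10. TIE1 rose by 1.53 ± 0.47 on the log2 scale (SE, adjusted p = 0.041), and 7 of the 10 fits that left out 1 well lost the call (adjusted p = 0.056 to 0.13). Day 9 wells read 23.5, 18.2, 31.4, 27.9 and 28.99 CPM, and day 11 wells 8.97, 13.0, 8.23, 7.43 and 8.53 CPM. Every day 11 well lay below every day 9 well, but the change of -1.49 ± 0.46 was not called (adjusted p = 0.065). It passed in DESeq2 (adjusted p = 0.026). Day 90 wells read 2.42, 0.626 and 1.06 CPM, and TIE1 fell 18.3-fold from day 9 (log2 -4.20 ± 0.67, adjusted p = 3.5e-06).

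CDH5, the endothelial cadherin, gave the clearest course. It was close to the counting limit in pluripotent cells (0.121, 0.0919 and 0.292 CPM), and day 0 wells read 0.537, 0.466 and 0.587 CPM. Day 1 wells read 0.135, 0.257 and 0.280 CPM and day 3 wells 1.11, 1.01 and 0.604 CPM. The rise to day 3 was 1.98 ± 0.76 on the log2 scale (SE, adjusted p = 0.046), and leaving out any day 1 well, or day 3 replicate 1 or 2, lost it (adjusted p = 0.080 to 0.14). In pluripotent wells CDH5 stood at 0.754% to 1.10% of the mean of the other libraries of its lane, and TNNT2, a cardiomyocyte gene, stood at 0.598% to 1.18%. At day 0 CDH5 was at 3.37% to 4.15%. Carry-over within a lane as a source of these low counts was not tested.

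At day 5 CDH5 read 9.99, 19.7, 27.9, 2.83 and 6.51 CPM, and every well was above day 3. It rose by 3.88 ± 0.59 on the log2 scale (SE, adjusted p = 6.8e-06), 14.7-fold. Day 7 wells read 37.3, 19.3, 62.9, 52.4 and 44.03 CPM, a further rise of 1.69 ± 0.41 (adjusted p = 0.0063), although the low well of day 7, replicate 10, lay inside the range of day 5. Day 9 had the highest mean, 54.2 ± 10.5 CPM (SD, n = 5), with wells of 57.7, 37.3, 51.4, 63.0 and 61.9 CPM that overlapped day 7.

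CDH5 was lower from day 11, when wells read 23.4, 26.0, 20.3, 17.7 and 16.9 CPM, all below day 9. The fall of 1.38 ± 0.40 on the log2 scale was the only call at that step (SE, adjusted p = 0.047; 1.24% of all tested genes were called lower), and 9 of the 10 fits without 1 well lost it (adjusted p = 0.053 to 0.12). Wells read 12.3, 16.0 and 8.99 CPM at day 14 and 4.80, 5.20 and 2.30 CPM at day 20. At day 30 they read 3.38, 1.95 and 14.4 CPM, so replicate 3 was back in the range of day 14. Day 90 wells read 0.448, 0.0696 and 0.392 CPM, at most 10 counts a well. The fall from day 9 was 7.37 ± 0.73 on the log2 scale (adjusted p = 2.7e-10), 165-fold.

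PECAM1, the platelet and endothelial adhesion protein, passed the test at day 3 and again at day 7. Day 1 wells read 0.270, 0.0321 and 0.311 CPM and day 3 wells 1.51, 1.49 and 2.08 CPM. The rise was 3.02 ± 0.86 on the log2 scale (SE, adjusted p = 0.0068). Day 5 wells spread from 0.739 to 11.4 CPM (1.66, 5.95, 11.4, 0.739 and 1.67 CPM) and overlapped day 3, and the step was not called (log2 1.33, adjusted p = 0.16). Day 7 wells read 14.0, 8.27, 22.7, 21.8 and 19.9 CPM. The rise from day 5 was 2.02 ± 0.53 (adjusted p = 0.013), and it was lost without day 5 replicate 1 or 5 (adjusted p = 0.054 and 0.051).

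The wells of day 9 were the most even for PECAM1, at 24.7, 21.3, 22.6, 25.6 and 24.7 CPM. Day 11 wells were lower in all 5 (13.0, 14.9, 7.35, 7.17 and 6.87 CPM), but the step was not called (log2 -1.27, adjusted p = 0.18). The 2 highest of these wells, replicates 1 and 2, stood apart from the other 3 in their endoderm sum (4495 and 8578 against 157 to 170.1 CPM), cardiomyocyte sum (7374 and 4741 against 18093 to 19917 CPM) and RNA integrity (8.6 and 8.0 against 9.2 to 9.5). Without both, a choice made after seeing the data, PECAM1 changed by -1.74 (adjusted p = 0.086) and was not called, and CDH5 was still the only gene called (log2 -1.57, adjusted p = 0.046). Wells read 3.61, 3.15 and 0.986 CPM at day 20 and 1.91, 2.73 and 20.3 CPM at day 30. Day 30 replicate 3 thus stood near the day 9 level while its 2 partners stood near day 20. With all wells the change from day 9 to day 30 was -1.51 and not called (adjusted p = 0.06), and without that well it was -3.37 (adjusted p = 0.0005). It was also called with all wells in DESeq2 (adjusted p = 0.047), with lane as a term (log2 -2.19, adjusted p = 0.0051) and with the replicate block (log2 -2.003, adjusted p = 0.012). Day 90 wells read 0.179, 0.0696 and 0.336 CPM, at most 6 counts a well, and the fall from day 9 was 116-fold (log2 -6.85 ± 0.92, adjusted p = 1.6e-07).

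ESAM, the adhesion molecule found at tight junctions, had group means most like those of CDH5 among the 10 genes. Day 3 wells read 0.278, 0.149 and 0.226 CPM and day 5 wells 3.25, 5.83, 8.43, 0.696 and 2.23 CPM, with no overlap. The rise was 4.20 ± 0.71 on the log2 scale (SE, adjusted p = 3.4e-05), 18.4-fold. Day 7 wells read 9.06, 5.57, 16.5, 12.4 and 11.3 CPM, and the step of 1.42 ± 0.45 was just short of a call (adjusted p = 0.054; 0.032 in DESeq2). Day 9 wells read 20.4, 13.2, 13.4, 19.4 and 23.7 CPM and day 11 wells 9.73, 7.61, 8.15, 6.77 and 5.39 CPM. All day 11 wells lay below all day 9 wells, without a call (log2 -1.26, adjusted p = 0.11). At day 90 ESAM read 0.134, 0 and 0.224 CPM, at most 4 counts a well, and the fall from day 9 was 7.10 ± 0.83 on the log2 scale (adjusted p = 9.1e-09).

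Among the 3 transcription factors of the 10 genes, SOX7 had the largest estimate at day 5. Its wells read 0.437, 0.372 and 0.0755 CPM at day 3 and 5.88, 11.2, 12.9, 2.65 and 2.94 CPM at day 5. SOX7 rose by 4.57 ± 0.67 on the log2 scale (SE, adjusted p = 2.9e-06), 23.8-fold, and its highest mean was at that day, 7.11 ± 4.71 CPM (SD, n = 5). Day 7 and day 9 means, 6.70 ± 3.01 and 4.89 ± 1.89 CPM, overlapped day 5. Its means then stayed between 1.59 ± 1.26 CPM (day 30) and 2.67 ± 1.49 CPM (day 14), with no step called. Day 90 wells read 0.359, 0.139 and 0.336 CPM. The fall from day 30, 2.45 ± 0.71 on the log2 scale (adjusted p = 0.024), was lost in 8 of 16 alternatives. Among them were leaving out day 30 replicate 3 (adjusted p = 0.28) or any single day 90 well (adjusted p = 0.057 to 0.081) and lane as a term (adjusted p = 0.11).

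ERG started at 1.41, 0.858 and 0.583 CPM in pluripotent wells and 1.64, 1.30 and 1.66 CPM at day 0. At day 1 the wells read 0.101, 0.225 and 0.280 CPM, and ERG fell by 2.88 ± 0.75 on the log2 scale (SE, adjusted p = 0.0046). Day 5 wells read 3.06, 7.82, 13.6, 1.61 and 1.56 CPM, all above the 0.437 to 0.745 CPM of day 3. The rise was 3.33 ± 0.67 (adjusted p = 0.0004), 10.0-fold. ERG was highest at day 9 by CPM (6.68 ± 1.38) and at day 5 by TPM (1.27 ± 0.997 against 1.14 ± 0.536 TPM; SD, n = 5 each), and these days overlapped. At day 90 it was still 1.84, 0.139 and 1.74 CPM, so 2 of 3 wells stood just above the wells of day 0. The fall from day 9 to day 90 was 2.39 ± 0.63 (adjusted p = 0.0024), 5.25-fold, beside 165-fold for CDH5, and the difference between the genes was not tested.

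SOX18 was the weakest of the 10, with at most 47 counts in a well. In pluripotent cells and at day 90 no well had more than 3 counts (0, 0.0613 and 0.0729 CPM, and 0.134, 0.0696 and 0.168 CPM), so no fold against those groups is given. Day 5 wells read 1.08, 1.52, 1.28, 0.0869 and 0.669 CPM and day 9 wells 1.55, 1.198, 1.58, 1.30 and 1.204 CPM. No step between neighbouring days was called, but the rise from day 0 to day 9 was 3.29 ± 0.70 on the log2 scale (SE, adjusted p = 0.00018). Day 30 wells read 0.0407, 0.312 and 0.370 CPM, and from day 9 SOX18 fell by 2.54 ± 0.69 (adjusted p = 0.0044).

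Ordered by group mean, most neighbouring groups overlapped in their wells. Of the 11 neighbouring pairs in its order, CDH5 had 3 without overlap. These set day 20 above day 3, day 3 above day 0 and day 0 above day 90. For FLT1 the 2 pairs without overlap set the pluripotent cells above day 7 and day 1 above day 90. PECAM1, KDR, ERG and ESAM had 1 such pair each, and TEK, TIE1, SOX7 and SOX18 had 0. The single gap of PECAM1 lay between day 3 and day 0, that of ESAM between day 20 and day 0, that of KDR between day 0 and day 20, and that of ERG between day 3 and day 1. The lowest mean was in pluripotent cells for CDH5, ESAM and SOX18, at day 1 for ERG, at day 3 for TIE1, at day 30 for KDR and TEK and at day 90 for PECAM1, FLT1 and SOX7.

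Counted by step, the largest shared change was from day 3 to day 5. From day 0 to day 1 FLT1, TIE1 and ERG fell, 3 of 10, and 0 rose (9.66% of all tested genes were called lower and 3.86% higher). From day 1 to day 3 PECAM1, CDH5 and FLT1 rose, 3 of 10, and 0 fell (11% of all tested genes were called higher and 6.8% lower). Leaving out any 1 well of these groups left 2 calls. FLT1 had a mean of 71.2 CPM at day 3 against 136 CPM at day 0, so its rise was not an onset. From day 3 to day 5 CDH5, ESAM, SOX7, ERG, TIE1 and TEK rose, 6 of 10, beside 5.75% of all tested genes called higher. The median log2 fold change of the 10 genes at this step was 2.57, and that of all tested genes -0.02. From day 5 to day 7 PECAM1, CDH5 and TIE1 rose, 3 of 10, and 0 fell (2.74% of all were called higher and 0.906% lower). The count was 1 without day 5 replicate 1 or replicate 5.

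**Figure D2:**
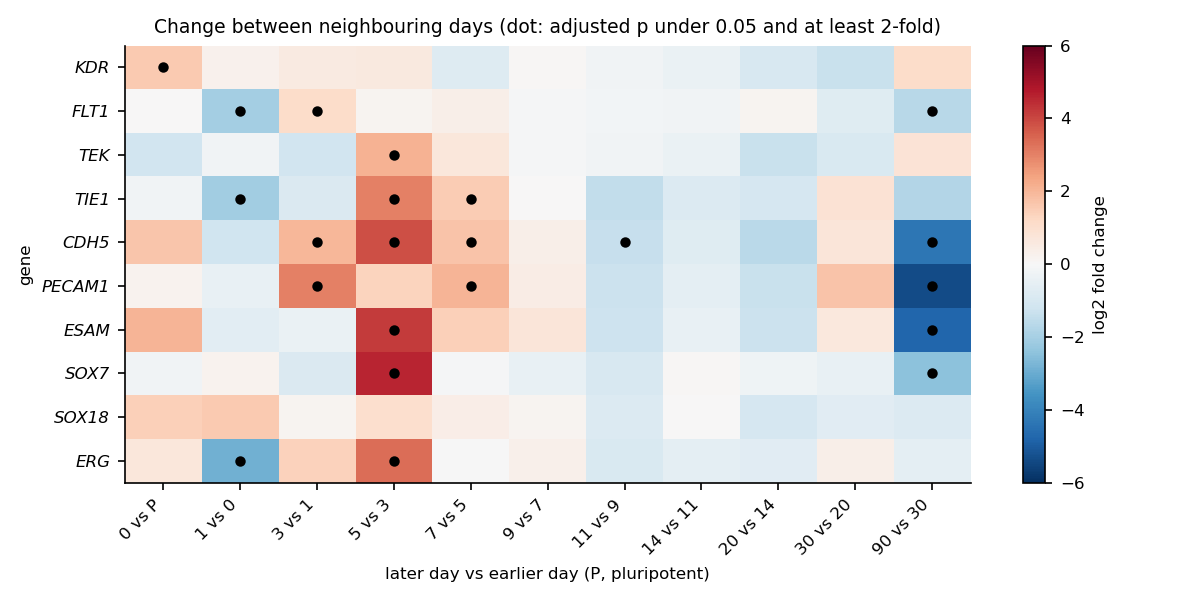
Log2 fold change of each gene between neighbouring days from edgeR's quasi-likelihood fit; colour gives size and direction, and a dot marks an adjusted p under 0.05 with at least a 2-fold change. Dots gather at day 5 against day 3 (6 higher) and at day 90 against day 30 (5 lower); SOX18 was at 3 counts or fewer in every pluripotent and day 90 well, so its colours against those groups depend on the fit.

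A plateau followed. From day 7 to day 9, 0 of 10 genes were called in edgeR (1.02% of all tested genes were called higher and 0.261% lower), 0 had an unadjusted p under 0.05, and DESeq2 called 0. In tests on simulated counts the same fit called 75% of 200 genes, drawn from all tested genes and changed 4-fold at this step. Smaller changes, and these 10 genes by themselves, were not simulated. The lack of calls therefore does not show that levels stayed the same. From day 9 to day 11, CDH5 was called and 5 genes had an unadjusted p under 0.05, all lower (17.2% of all tested genes had such a p, in either direction). From day 11 to day 14, 0 genes were called (0.484% of all were called higher and 0.213% lower), 0 had an unadjusted p under 0.05, and DESeq2 called 0. From day 14 to day 20, 0.0479% of all tested genes were called higher and 0% lower, and of the 10 genes 0 were called while 4 had an unadjusted p under 0.05, all lower (5.87% of all tested genes, and 0 calls in DESeq2). From day 20 to day 30, 0 were called (1.26% of all were called lower) and 3 had an unadjusted p under 0.05, 1 higher and 2 lower (15.6% of all). DESeq2 called KDR lower there. Without day 30 replicate 3, or without day 20 replicate 3, KDR and FLT1 were called lower (log2 -2.17 and -1.31, or -1.58 and -1.13).

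Loss over longer spans was plain. By day 30, 8 of 10 genes had fallen from day 9 and 0 had risen (9.25% of all tested genes were called lower and 9.69% higher), all but PECAM1 and FLT1, which missed on size (log2 -0.98, adjusted p = 0.011). Without day 30 replicate 3 the count was 10, and without day 30 replicate 1 or 10 SOX7 and ERG were no longer called. From day 30 to day 90 PECAM1, ESAM, CDH5, SOX7 and FLT1 fell, 5 of 10 (2.44% of all), by 5.35, 4.76, 4.34, 2.45 and 1.68 on the log2 scale. This count was 0 when only the 6 libraries of these days were fitted, where 2 of all tested genes were called higher and 1 lower, in place of 608 and 560. The fall of all 10 from day 9 to day 90 held in every fit that left out 1 well. ERG, SOX7 and SOX18 lost the call in 1 other alternative, limma on log2(TPM + 1).

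Summed over the 10 genes, the mean level per well was highest at day 5. The median was instead highest at day 9, at 654 CPM against 618 CPM at day 5. The sum was 279 ± 7.51 CPM in pluripotent cells, 361 ± 19.0 at day 0, 282 ± 11.9 at day 1 and 400.4 ± 45.2 CPM at day 3. It was 649 ± 164 CPM at day 5, 575 ± 164 at day 7 and 606 ± 108 at day 9. By day 20 it was 219.6 ± 97.4 and at day 90 122.7 ± 83.0 CPM (SD, n as above). The wells of days 5, 7 and 9 overlapped, and the highest mean moved to day 9 without day 5 replicate 3 or without day 9 replicate 10. In the sum of TPM, which counts per length, the mean was highest at day 5 too, at 70.9 ± 15.0 TPM. It was 68.1 ± 38.3 TPM at day 9 and 7.48 ± 4.69 TPM at day 90.

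Taken without the 4 receptors that pluripotent cells already carried, the sum had a sharper course. The split at 1 CPM in pluripotent cells was made after the values were seen. It picks genes that were low in that group, so part of the rise from there is built in. The other 6 genes summed to 2.04 ± 0.349 CPM in pluripotent cells, 3.39 ± 0.346 at day 0, 1.86 ± 0.465 at day 1 and 4.11 ± 0.179 CPM at day 3. They summed to 35.3 ± 27.9 CPM at day 5, to 84.7 ± 31.1 CPM at day 7 and to 109 ± 19.0 CPM at day 9. Afterwards the sum was 45.1 ± 9.76 CPM on day 11, 30.3 ± 6.78 CPM on day 14 and 13.3 ± 4.89 CPM on day 20. It was 22.1 ± 23.3 CPM on day 30, with 49.0 CPM in replicate 3 alone, and 2.26 ± 1.53 CPM on day 90. Every day 11 well was below every day 9 well, at 35.0 to 56.4 against 80.5 to 124 CPM. The 3 day 90 wells, at 0.487 to 3.19 CPM, lay within or below the range of the pluripotent, day 0 and day 1 wells.

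**Figure D3:**
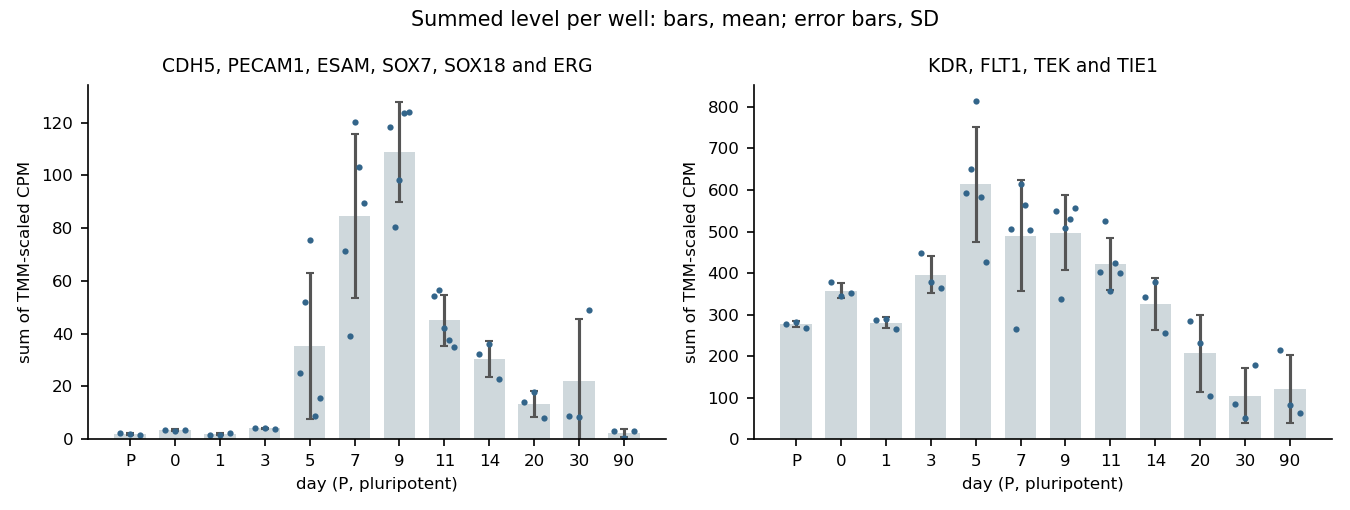
Summed TMM-scaled CPM per well (points), with group mean (bars) and SD (error bars), for the 6 genes under 1 CPM in pluripotent cells (left) and the 4 receptors (right), against day (P, pluripotent). The left sum is highest at day 9 (109 CPM) and near its starting level at day 90 (2.26 CPM); the right sum starts at 276 CPM, is highest at day 5 (613 CPM) and is 120.5 CPM at day 90.

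The make-up of the summed signal changed from receptors only to a mixture and back. By TPM, FLT1 was 46.5% of the sum in pluripotent cells, TEK 26.8% and KDR 18.3%. KDR then made up 46.4% on day 0, 72.9% on day 1 and 74.4% on day 3, and 66.0% on day 5. At day 9 KDR was 38.1 ± 3.05%, FLT1 14.4 ± 1.89%, TEK 13.8 ± 1.94%, CDH5 10.1 ± 0.554%, ESAM 7.76 ± 1.24%, PECAM1 6.29 ± 1.34% and TIE1 6.08 ± 0.940% (SD, n = 5). CDH5 had been 1.76 ± 1.24 TPM at day 5 and was 7.00 ± 4.20 TPM at day 9. At day 90 KDR was 59.2 ± 24.0% of the sum, and CDH5, ESAM and PECAM1 were 0.509%, 0.417% and 0.113%. In TPM at day 9 the order was KDR 26.5, FLT1 9.71, TEK 9.02, CDH5 7.00, ESAM 5.50, TIE1 4.13, PECAM1 4.00, ERG 1.14, SOX7 0.810 and SOX18 0.368, and KDR had the highest TPM in every day 9 well (11.02 to 50.22 TPM).

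**Figure D4:**
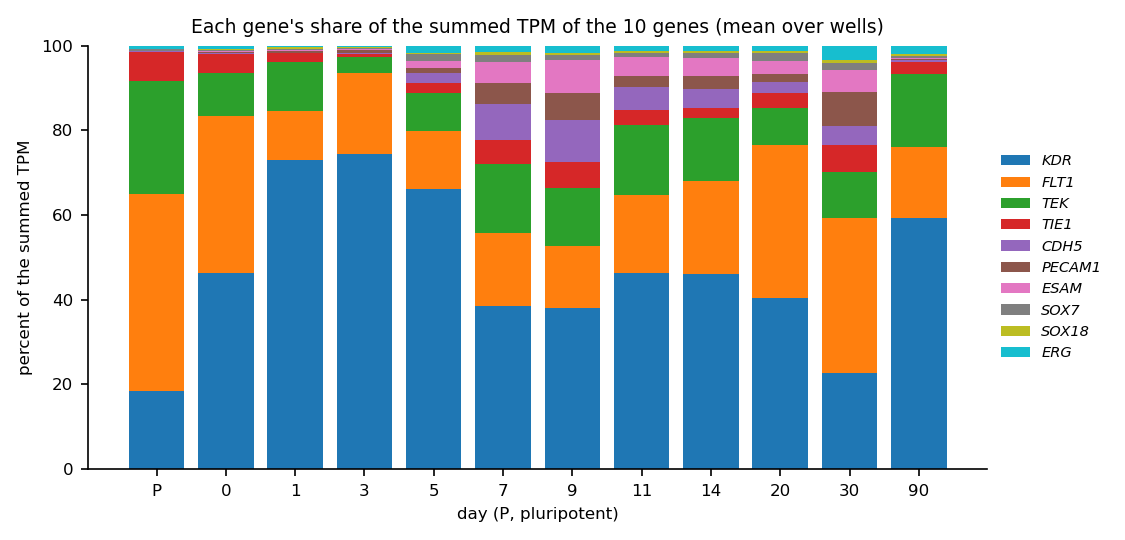
Share of each gene in the summed TPM of the 10 genes, mean over wells of each group, against day (P, pluripotent). The blue KDR band grows from 18.3% in pluripotent cells to 74.4% at day 3, and the CDH5 and ESAM bands are widest at day 9, while that of PECAM1 is widest at day 30 (8.02 ± 4.11%).

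On some days the wells did not hold the same amount of this signal, and most of the 10 genes were highest or lowest in the same well. In other groups the highest well differed by gene. In pluripotent cells replicates 1, 2 and 3 were highest for 3, 2 and 5 genes. The same count over all tested genes was not made. Day 30 replicate 3 was the highest well of its day for all 10 genes. Its cardiomyocyte genes summed to 6195 CPM against 10892 and 11106 CPM in its partners, its 7 mural and fibroblast genes to 6114 against 3358 and 2721 CPM, and its 5 endoderm genes to 268 against 39.1 and 20.1 CPM. PECAM1 is also made by platelets and leukocytes, and the 12 blood and platelet genes of this well summed to 32.8 against 6.35 and 7.65 CPM. At day 5 replicate 3 was highest for 8 genes and replicate 4 lowest for 7. Replicate 3 also had the highest sum of endoderm genes at that day (775 CPM, others 231 to 433 CPM) and of mural and fibroblast genes (3222 CPM, others 1345 to 1975 CPM). Replicate 10 was the lowest for 9 genes at day 7 and for 9 at day 9, where its cardiomyocyte sum was the highest (15408 CPM, others 6256 to 13514 CPM). Endoderm genes did not go the same way on every day. At day 20 replicate 3 was lowest for 9 genes and had the highest endoderm sum (3880 against 1747 and 921 CPM). Day 90 replicate 4 was likewise lowest for 9 genes and highest in the endoderm sum (127.7 against 8.74 and 9.24 CPM). Day 5 replicate 4, replicate 10 of days 7 and 9 and day 90 replicate 4 were all sequenced in lane 4. Day 20 replicate 3 was in lane 3. The lane 4 wells of days 11 and 30, replicates 7 and 10, were lowest for 4 and 6 genes. Those of the pluripotent cells and of day 0, replicate 2 in each, were lowest for 2 and 4. RNA integrity was 8.4 in day 5 replicate 4 and 9.8 to 10 in the others of that day. The part of these other cells, of lane or of RNA integrity in the endothelial values was not tested.

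Among 8 ligands of these receptors, of which 7 passed the filter, 6 rose from day 0 to day 9. Beside the counts of this and the following lists stand the shares of all tested genes called higher and lower. These were 17.1% and 14.6% from day 0 to day 9, and 11% and 6.8% from day 1 to day 3. They were 5.75% and 4.34% from day 3 to day 5. From day 9 they were 9.69% and 9.25% to day 30, and 11.9% and 12% to day 90. VEGFA, the main ligand of KDR and FLT1, went from 58.3 ± 3.79 CPM at day 1 to 203 ± 59.0 CPM at day 3 (SD, n = 3 each; log2 1.801 ± 0.34, adjusted p = 7.9e-05). It did not decline with the receptors and was 535 ± 421 CPM at day 90. PGF, a ligand of FLT1, went from 1.47 to 31.7 CPM over that step (log2 4.42 ± 0.26, adjusted p = 1.6e-15). ANGPT1, the activating ligand of TEK, was 4.16 ± 1.91 CPM at day 5 and 79.8 ± 20.7 CPM at day 7 (SD, n = 5 each), a rise of 4.26 ± 0.40 (adjusted p = 7e-10). By day 90 ANGPT1, ANGPT2, ANGPT4 and PGF had fallen from day 9 and VEGFB had risen.

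Of 8 co-receptors and other vascular receptors, 6 rose and FLT4 fell from day 0 to day 9. NRP1, a co-receptor of KDR, went from 9.03 ± 3.96 CPM at day 1 to 159 ± 60.6 CPM at day 3 (log2 4.14 ± 0.34, adjusted p = 4.8e-12). NRP2 was highest at day 5, 337 ± 41.4 CPM (SD, n = 5). S1PR1, a receptor for sphingosine-1-phosphate, rose by 2.13 ± 0.22 from day 3 to day 5 (adjusted p = 2.6e-09) and was 84.6 ± 32.1 CPM at day 90. EPHB4 fell by 1.40 ± 0.22 from day 9 to day 30 (adjusted p = 5.1e-06). Against day 9, NRP1 was called higher at day 90 and 4 of the 8 lower.

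Of 8 further transcription factors of the endothelial and blood lineages, 5 rose and 1 fell from day 3 to day 5. SOX17, the third SOXF factor and also an endoderm gene, was 0.309 CPM at day 1, 73.4 ± 12.2 CPM at day 3 (SD, n = 3) and 7.93 ± 2.76 CPM at day 5 (SD, n = 5). It thus rose by 7.86 ± 0.64 and then fell by 3.21 ± 0.41 on the log2 scale (adjusted p = 4.1e-12 and 2.1e-07), 1 sampled day before the rise of SOX7. GATA2 went from 4.26 CPM at day 3 to 25.0 ± 6.19 CPM at day 5 (log2 2.55 ± 0.39, adjusted p = 6.4e-06) and LMO2 from 1.41 to 10.3 CPM (log2 2.87 ± 0.44, adjusted p = 7.1e-06). ETS1 had no such rise, and its level was 42.8 CPM at day 5 against 77.2 CPM in pluripotent cells.

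TAL1 and ETV2 were singled out from this list after their values were seen. TAL1, a factor of blood and endothelial progenitors, went from 0.259 ± 0.181 CPM at day 3 to 30.3 ± 6.58 CPM at day 5 (log2 6.86 ± 0.59, adjusted p = 5.2e-11) and was 14.8 ± 3.92 CPM at day 9. ETV2, an early ETS factor, went from 1.08 ± 0.143 to 4.50 ± 1.38 CPM and then fell by 2.13 ± 0.40 to 1.02 ± 0.337 CPM at day 7 (adjusted p = 0.00036). FLI1, an ETS factor with a course like that of CDH5, went from 0.546 CPM at day 3 to 12.05 ± 9.94 CPM at day 5 and 18.4 ± 1.92 CPM at day 9. By day 90, 7 of the 8 factors had fallen from their day 9 level.

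**Figure D5:**
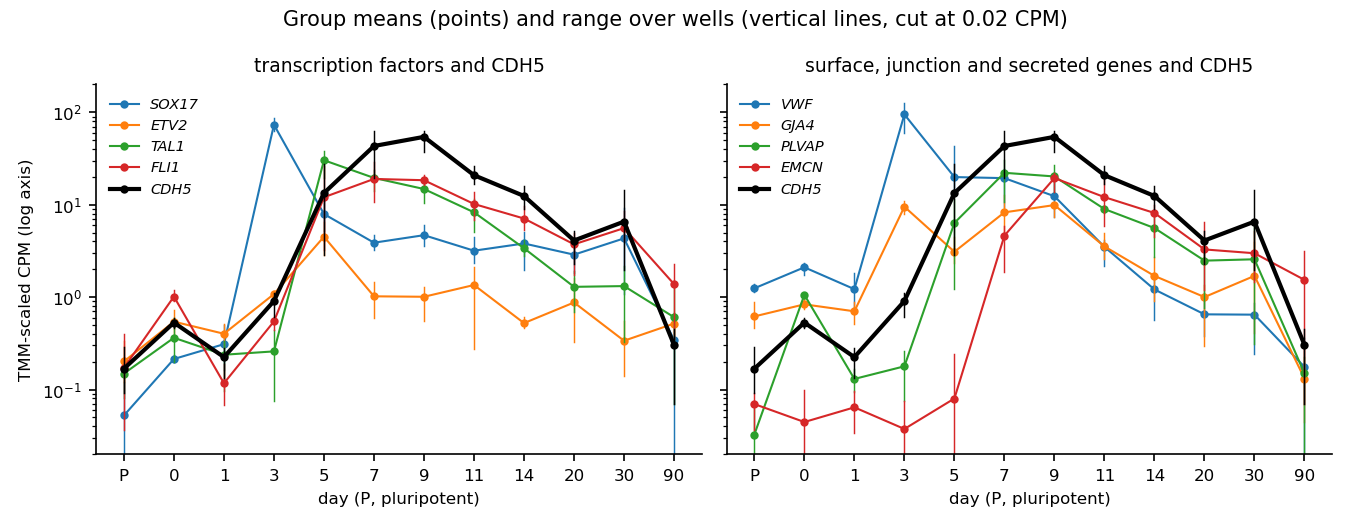
Group means (points) and the range over wells (vertical lines) in TMM-scaled CPM on a log axis for transcription factors (left) and surface, junction and secreted genes (right), each with CDH5 in black, against day (P, pluripotent). SOX17, VWF and GJA4 stand high at day 3 before CDH5, TAL1 and ETV2 are highest at day 5, and EMCN appears at day 7.

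Of 12 other endothelial surface, junction and secreted genes, 9 rose between day 0 and day 9. Against day 9, 9 fell by day 30 and 10 by day 90. VWF, the carrier of clotting factor in endothelial cells and platelets, was 1 of 3 genes called higher at day 3, with NOS3 and MMRN2, and RASIP1 was called lower. It was 1.22 ± 0.541 CPM at day 1, 94.9 ± 33.6 CPM at day 3 (SD, n = 3 each) and 19.9 ± 13.1 CPM at day 5 (SD, n = 5), a rise of 6.27 ± 0.53 and a fall of 2.25 ± 0.37 on the log2 scale (adjusted p = 1.3e-11 and 1.7e-05). EMCN, a sialomucin of venous and capillary endothelium, came later. It was 0.0799 CPM at day 5, 4.63 ± 1.71 CPM at day 7 and 19.4 ± 3.32 CPM at day 9 (SD, n = 5 each). The rises were 5.76 ± 0.70 and 2.07 ± 0.49 on the log2 scale (adjusted p = 1.7e-07 and 0.014). The day 5 mean lay below the level of 3 counts in that day's libraries, 0.112 to 0.130 CPM, so the size of the first rise depends on the fit. ECSCR rose by 1.65 ± 0.46 at day 7 (adjusted p = 0.023) although its wells overlapped those of day 5. EGFL7 was already 37.0 CPM at day 0 and 60.8 CPM at day 7, and was not called between day 0 and day 9. CLDN5, a tight-junction gene of mature endothelium singled out after its values were seen, had no group mean above 1.30 CPM.

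Genes tied to kinds of endothelium did not share 1 course. Of 8 arterial genes, 4 rose and 1 fell at day 3 against day 1. At the next step 2 rose and 4 fell. CXCR4 was 53.7 ± 17.4 CPM at day 3 (SD, n = 3) and 13.0 ± 7.94 CPM at day 5, and UNC5B rose from 25.2 to 72.8 CPM over the same step (log2 1.53 ± 0.27, adjusted p = 5.4e-05). GJA4, a connexin singled out after its values were seen, was 9.51 CPM at day 3, 3.09 at day 5, 9.91 at day 9 and 0.132 CPM at day 90. HEY2, also a gene of ventricular muscle, rose by 2.29 ± 0.29 from day 9 to day 90 (adjusted p = 4.5e-08), when all 10 endothelial genes fell. Of 6 venous and lymphatic genes that passed the filter, 5 rose and PDPN fell from day 0 to day 9. APLNR, the apelin receptor, which early mesoderm also makes, was 813 ± 173 CPM at day 3 and 41.6 ± 13.9 CPM at day 9. Of 5 endocardial genes, 3 rose and CYTL1 fell from day 0 to day 9. Among those that rose was NFATC1, which was highest at day 3 (53.2 ± 12.8 CPM). CGNL1 was 448 CPM at day 3 and 27.0 CPM at day 1. PLVAP, a diaphragm protein of fenestrated and endocardial endothelium, went from 0.178 CPM at day 3 to 6.35 ± 3.93 CPM at day 5 (SD, n = 5; log2 5.11 ± 0.74, adjusted p = 2.6e-06).

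Blood and platelet genes moved in both directions. The 12 blood and platelet genes summed to 8.43 to 10.9 CPM at day 5 and to 6.72 to 16.4 CPM at day 9, and to 12.5 to 14.1 CPM in pluripotent cells. Later wells spread more, from 8.69 to 27.8 CPM at day 14, from 10.6 to 37.9 CPM at day 20 and from 6.35 to 32.8 CPM at day 30. At day 20 the 6 low endothelial genes summed to 8.11 to 17.8 CPM. PTPRC, the pan-leukocyte gene, GP9 and PPBP were at 3 counts or fewer in every well at day 5, 7 and 9. From day 3 to day 5, 0 of the 11 genes tested rose and PTPRC, RUNX1 and AIF1 fell. Of all tested genes 5.75% were called higher and 4.34% lower there. Between day 0 and day 9 CD68, RUNX1 and CD14 rose, and PF4 and AIF1 fell. Over that span 17.1% of all tested genes were called higher and 14.6% lower. ITGA2B, an integrin of platelets, was 6.56 ± 1.68 CPM at day 9 and 9.99 ± 0.486 CPM at day 0. RUNX1 was highest at day 20 (17.9 ± 11.0 CPM; SD, n = 3).

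The 10 other protein-coding genes whose 12 group means were most like those of CDH5 were LAPTM5, NEK6, PLVAP, NKX2-3, SOST, FLI1, TRAF3, LYL1, RPH3AL and CRHBP. Pearson's r over the 12 group means of log2 CPM ran from 0.947 (CRHBP) to 0.984 (LAPTM5) among 13877 genes ranked, and the points share libraries and scaling, so r is only a description. Among the 10 endothelial genes ESAM had r = 0.982 and PECAM1 0.970, ranks 2 and 3 of all genes. SOX7 had 0.914 and ERG 0.881, whereas TIE1 had 0.617, TEK 0.466, KDR 0.412 and FLT1 0.357. SOX18 was not ranked, since its TPM stayed under 1. At day 9 CRHBP stood at 113 ± 43.4 CPM, SOST at 60.0 ± 13.2, TRAF3 at 44.8 ± 6.20, NEK6 at 32.7 ± 2.70, PLVAP at 20.2 ± 5.91 and LAPTM5 at 7.63 ± 1.12 CPM (SD, n = 5).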

How the data were processed

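RNA was extracted with a Norgen single-cell kit, prepared as TruSeq stranded total RNA libraries and sequenced as 150 bp paired ends with 10 libraries a lane, per the labels. The authors deposited estimated counts per gene and TPM for all 44 libraries. The submitters' processing notes name cutadapt, STAR 2.5.2b, RSEM 1.2.31 and hg38, and the annotation release and use of strand are not given in the sources used here. RNA integrity is a score per the labels. Of 60499 identifiers 56769 were in GENCODE release 29 and 3730 were not, and they were matched for positions and names only.

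Deposited estimated counts, 93.8% of them whole, were rounded. Genes were filtered by expression in edgeR 4.0.16 (filterByExpr), libraries scaled by TMM, and all 44 libraries fitted with 1 mean per group in edgeR's quasi-likelihood test, with Benjamini-Hochberg adjustment over 22955 genes and a call at adjusted p under 0.05 with a log2 fold change of at least 1. The 14 comparisons were each day against the one before, day 9 against day 0, and days 30 and 90 against day 9. Alternatives were RLE scaling, DESeq2 1.42.0, no filter or 1 CPM in 3 libraries, limma 3.58.1 on log2 of TPM plus 1 or 0.1, only the groups compared, a replicate block, lane as a term, each library left out and, chosen after seeing the data, the 3 shallowest libraries or 2 day 11 wells left out. On simulated counts the fit called 61.5% of genes changed 4-fold between day 0 and day 9 and 75% between day 7 and day 9, of 200 changed among 22955.

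The genes and lists were chosen with earlier results of these data known. The text names the 10 genes, per list the called genes highest by TPM, and the 10 genes most like CDH5. Others were chosen after their values were seen: TAL1, ETV2, GJA4, CLDN5 and single genes named to spell out a count.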

Additional observations from a re-analysis of the deposited data

Results flagged for a closer look

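In groups of 5 wells, 44 values were tested for a well far from the others by Dixon's test, and 4 passed. Chance gives about 1 in 20. FLT1 at day 7 was lowest in replicate 10, at 76.0 CPM, while the others read 108.8 to 114.5 CPM. TEK at day 11 was highest in replicate 2, at 125.7 CPM, while the others read 52.5 to 71.9 CPM. In the same well TIE1 was highest too, at 13.0 CPM against 7.43 to 8.97 CPM. That well had the highest sum of endoderm genes at its day, 8578 CPM, and the lowest sum of cardiomyocyte genes, 4741 CPM. The summed level of the 10 genes at day 9 was lowest in replicate 10, at 418.8 CPM, while the others read 607.8 to 681.2 CPM. Replicate 10 of day 7 and of day 9 were both sequenced in lane 4. The part of other cells or of lane in these values was not tested.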

How the results depend on the processing

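Of 48 calls for the 10 genes, 15 held under every alternative tried. Of 849 alternative values for these calls, 748 kept the call, 0 turned direction and the rest lost it, and the cause was not tested. Counts of called genes stayed within 1.5 times in all 14 comparisons under RLE scaling, no filter and the stricter filter. A step is named here by its later day. In limma on log2(TPM + 1) the counts were 0, 1, 0 and 0 at the steps to days 0, 1, 3 and 5, 0 at day 11 and 2 at day 90. They were 3 for the span from day 0 to day 9, and 4 and 7 for the spans from day 9 to days 30 and 90. With 0.1 in place of 1 they were 0, 1 and 0 at days 0, 1 and 3, 1 at day 7 and 0 at day 11. They were then 5 for the span from day 0 to day 9, and 5 and 10 for the spans from day 9 to days 30 and 90. Fitting only the groups compared gave 4 calls at day 0, 5 at day 3 and 4 at day 11, but 0 at day 90. DESeq2 gave 2 at day 11 and 1 at day 30. Lane as a term gave 3 at day 11, and leaving out the 3 shallowest libraries gave 2. The highest mean sum lay at day 9 when only the 6 genes under 1 CPM in pluripotent cells were summed, a choice made after seeing the data.

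Leaving out 1 library gave 0 to 1 calls at the step to day 0, 1 to 4 at day 7 and 0 to 1 at day 11. It gave 0 to 2 calls at day 30, 4 to 6 at day 90, 6 to 8 between day 0 and day 9 and 6 to 10 between day 9 and day 30, and the highest sum at day 5 to day 9. No step with 3 or more pairs of same-numbered wells had every correlation of deviations over 0.1, the bar for pairing. Of the steps with only 2 pairs, which cannot meet it, day 20 against day 14 had 0.553 and 0.611 and day 14 against day 11 had 0.102 and 0.342. With the replicate block the counts were 0 at day 11 and 6 at day 90, and no count but that of day 11 moved by over 1.5 times. The block moved the calls of PECAM1 (day 30 against day 9), KDR (day 90 against day 30) and ESAM (1.75, adjusted p = 0.0085, at day 7) past the threshold. Without day 11 replicates 1 and 2 the counts of called members at the steps to days 11 and 14 stayed 1 and 0, while over all tested genes 1652 were called higher and 727 lower at day 14, in place of 111 and 49. Over all tested genes, the groups alone gave 3 calls at the step to day 90. RLE scaling shifted the median of all genes to 0.12 between day 9 and day 30. Counts of 3 or fewer, up to 0.410 CPM in the shallowest library, limit SOX18 and the low genes before day 3 and at day 90.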

Other observations

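The deposited TPM spread more within days than the scaled counts. KDR at day 9 ran from 180.3 to 338 CPM over the 5 wells and from 11.02 to 50.22 TPM. The ratio of a gene's count to its TPM, set against that of other genes of the same well, gives the relative length at which its reads were counted. For TIE1 this length, relative to day 9, was 78.9 ± 3.36% in pluripotent cells and 87.1 ± 6.30% at day 0 (SD, n = 3 each). It was 109 ± 9.23% at day 7 (SD, n = 4 wells of at least 1 TPM) and 81.3 ± 11.7% at day 11 (SD, n = 5). For ERG it was 84.97 ± 2.29% at day 7 (SD, n = 3 wells of at least 1 TPM). The widest spread was that of PECAM1 at day 11, 158 ± 75.8% with wells from 90.1% to 240% (SD, n = 3 wells of at least 1 TPM). At day 14 PECAM1 was at 97.5 ± 29.5% (SD, n = 3). Which transcripts took the reads was not analysed here.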
